A study of Sus scrofa with 9 samples.

Results

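Histones and the proteins that modify, read or remodel chromatin were examined in boar testis on a custom porcine Agilent array. The 61 genes were chosen by name, as genes whose symbol on the array begins as that of a histone, a high mobility group protein of the A, B or N family, a histone deacetylase or sirtuin, a lysine acetyltransferase or demethylase, a SET domain methyltransferase, a DNA methyltransferase, a SMARC or CHD remodeller or a CBX or BRD reader. No measured value entered that choice. The 61 genes carried 142 of the 60889 probes that are not controls, and each gene was read through the probe with the highest mean in the deposited log2 table, called its leading probe below. Of the 61 leading probes, 56 gave enough signal to be tested. Testis RNA had been labelled with cyanine 3 and hybridized on 9 arrays, 3 to a group. The control group stands for fertile boars with normal semen and a normal karyotype. The oligospermic group is a single boar, also with a normal karyotype, and the t(1;14) group is a single boar that carries a reciprocal translocation between chromosomes 1 and 14 and has few, poorly motile and malformed sperm. Which control boar was hybridized to which control array is not given. The 3 arrays of the oligospermic boar, and those of the t(1;14) boar, are separate biopsies or extractions. Every p-value thus rests on the spread between arrays, which may include a spread between animals in the controls only. No p-value measures how far other boars of these kinds would differ. Breed, age and any other difference between the boars cannot be told apart from karyotype.

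DNA in most cells is wound around histones, and enzymes add or remove acetyl and methyl groups on histone tails, which other proteins with bromodomains or chromodomains then recognise. In the testis, spermatocytes silence unpaired chromosomes and the X and Y during meiosis, and spermatids take most of their histones off and replace them first with transition proteins and then with protamines. Deacetylases, acetyltransferases, replacement histone variants and ATP-dependent remodellers all take part in these steps. Messenger RNAs of the replication-dependent histones are also unusual, in that most end in a stem-loop and have no poly(A) tail. The primer used for labelling is not given in the sources used here.

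Values are log2 signals after quantile normalization over the 9 arrays, and a difference between groups is a log2 fold change from limma, with its standard error and a p-value adjusted by the Benjamini-Hochberg method over all 41105 tested probes. A gene is said to have risen or fallen where its adjusted p was at most 0.01. The second threshold used below, that of the methods, also asks for a change of at least 2 on the log2 scale in either direction. Each of the 3 slides held 1 array of each group. Between 37087 and 40632 probes per array were well above background, and 53 to 57 of the 61 genes. None of the leading probes was saturated on any array.

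The whole tissue was sampled, so fewer cells of a type and less RNA per cell cannot be told apart. The makeup of the tissue, as read from marker genes, moved with the t(1;14) group. Of 7 spermatid markers, 5 fell against control, and the mean log2 signal over the 7 lay between 12.85 and 12.87 on the t(1;14) arrays against 14.23 to 14.43 on the control arrays. Of 6 Leydig cell markers, 5 rose, and their mean lay between 12.43 and 12.61 against 10.34 to 10.62. The other lists moved less: 2 of 4 spermatogonium markers rose, 1 of 3 spermatocyte markers rose and 1 fell, 1 of 8 Sertoli markers rose and 2 fell, 2 of 6 peritubular and vascular markers rose and 1 fell, 1 of 2 immune markers rose and 2 of 3 S phase genes rose. In oligospermic against control, 1 spermatocyte marker fell and no other marker passed. The part of these shifts in the changes described below was not tested.

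In t(1;14) against control, 13 of the 56 tested chromatin genes rose and 7 fell. The rises were spread over high mobility group genes, remodellers, an acetyltransferase and others, while the falls included the 3 mitochondrial sirtuins, a histone H2B gene and the bromodomain gene BRD3. The 20 genes make up 35.7% of those tested, and 38.5% of all tested probes passed the same threshold (20% higher and 18.5% lower), so chromatin genes changed about as often as any other probe. With scaling to the 75th percentile instead of quantile normalization, 8 rose and 9 fell. The median log2 fold change was 0.18 over the 56 genes and 0.13 over all tested probes, and 34 of the 56 had t(1;14) and control arrays that did not overlap, against 61.6% of all probes. By the fitted values 2 genes passed both thresholds, SIRT4, lower, and CHD4, higher, where 5.82% of all probes passed both (1.41% higher and 4.41% lower). The control level of CHD4 is only a limit, as given below, so its fold is not known to be that large. Most changes in the set were small: 4 of the 56 genes passed with a log2 change of at least 1, against 20.5% of all probes. When 1 array of either group was left out, 8 of the 20 genes passed in all 6 fits, namely BRD3, HIST1H2BD, HMGN4, KAT2B, KDM4A, SIRT1, SIRT4 and SMARCA1. KAT2B and SMARCA1 were each read by a single probe, so no other probe could be set beside their calls. Another 8, CHD3, CHD6, HMGB1, HMGB2, KDM1B, KDM6B, SIRT5 and SIRT6, did not pass in 4 or more of the 6. The plot of fold changes by role shows all 56 genes in each of the 3 comparisons.

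**Figure D1:**
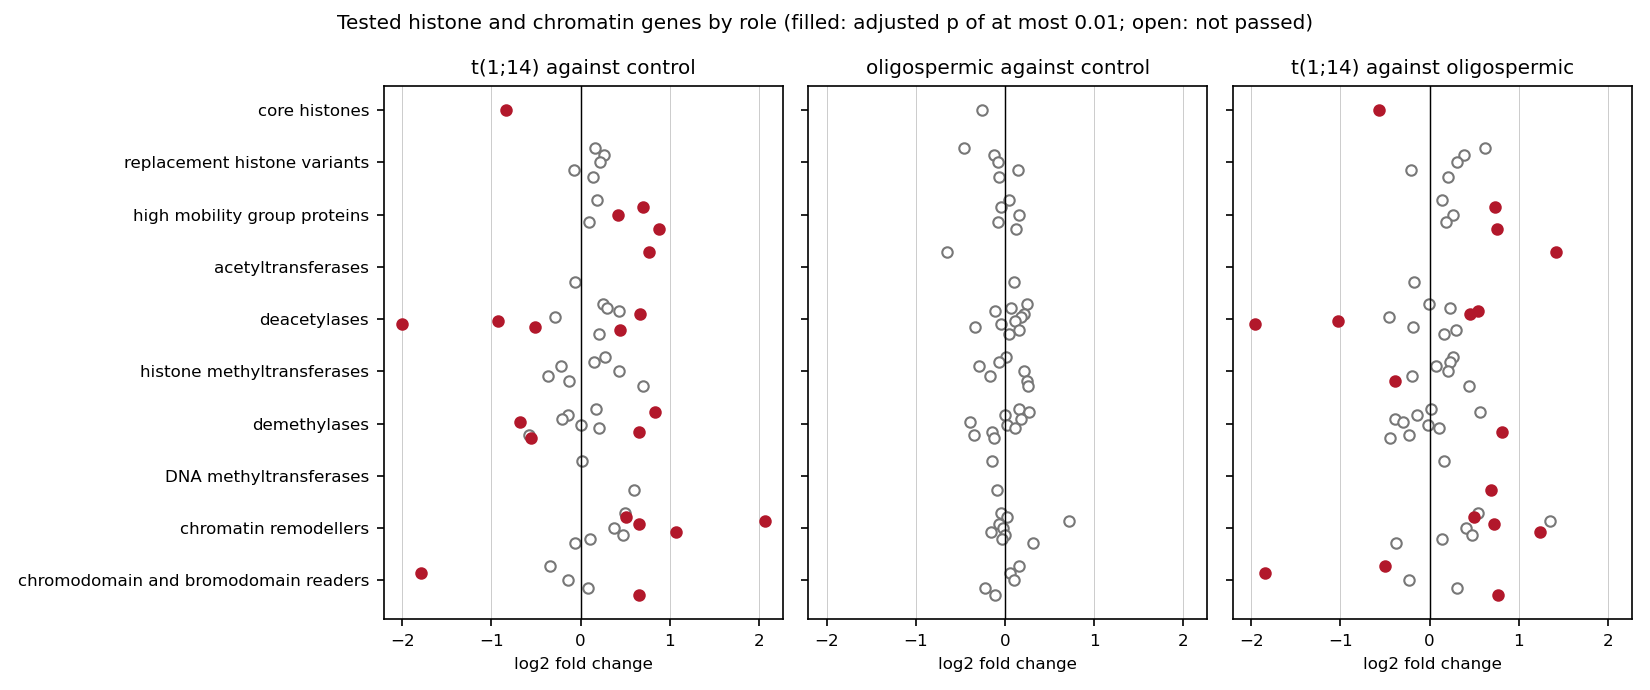
Log2 fold change of each tested gene (x axis, leading probe) by role class (y axis) in the 3 comparisons; filled circles passed an adjusted p of 0.01 and open circles did not. In t(1;14) against control 20 of 56 circles are filled, in oligospermic against control none is, and in t(1;14) against oligospermic 17 are, and the rightmost filled circle on the left is CHD4, which was not above background on any control array.

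Among the histones themselves, the only core histone found on the array by a HIST symbol was HIST1H2BD, a replication-dependent H2B gene. Histone probes listed under other names were not sought. Its leading probe read 12.54, 12.51 and 12.73 on the control arrays, 12.33, 12.28 and 12.38 on the oligospermic arrays and 11.68, 11.85 and 11.74 on the t(1;14) arrays. On this probe the 3 groups did not overlap, with t(1;14) lowest and oligospermic in between. HIST1H2BD fell 1.79-fold in t(1;14) against control (log2 fold change -0.84 ± 0.11 SE, adjusted p = 0.000293), whereas the difference of -0.26 between oligospermic and control did not pass (adjusted p = 0.332). Of its 4 probes 3 fell in t(1;14) against control, but those 3 start within 14 bases of each other and so read nearly the same stretch. The fourth, at base 750, gave -0.38 with an adjusted p of 0.328. In t(1;14) against oligospermic 1 of the 4 probes fell, with log2 fold changes from -0.57 to -0.02. The order of the 3 groups is thus given for the leading probe only. H2B genes form a family of near-identical copies, and the probes' share of signal from other copies was not tested.

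None of the 5 replacement histone variants, which are made outside S phase and enter chromatin independently of replication, passed in t(1;14) against control. Over all tested probes 38.5% passed. Their log2 fold changes ran from -0.07 for H3F3A to 0.26 for H2AFY2, one of the macroH2A genes. H3F3A and H3F3B, which both encode H3.3, were among the brightest genes of the set, with control means of 15.50 ± 0.03 and 15.17 ± 0.18 (SD, n = 3). All 3 probes of H3F3A (a pair of them with the same sequence) and all 5 of H2AFZ, the H2A.Z gene, failed to pass. H2AFY, which encodes macroH2A1, varied most among the controls, from 11.59 to 12.64, and its t(1;14) arrays at 12.15 to 12.28 lay inside that range. The linker histone found by symbol, the oocyte gene H1FOO, was not well above background on any array.

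High mobility group proteins bend DNA (HMGB) or bind nucleosomes and loosen them (HMGN), and 3 of the 5 rose in t(1;14) against control while none fell, where 20% of all probes rose. HMGN4 read 10.002, 9.850 and 9.663 on the control arrays and 10.56, 10.85 and 10.74 on the t(1;14) arrays. The oligospermic arrays, at 10.13, 10.03 and 9.72, overlapped the controls and lay below every t(1;14) array. HMGN4 rose 1.84-fold (0.88 ± 0.15, adjusted p = 0.00148), and its second probe rose by 1.02. HMGB1 rose by 0.70 ± 0.17 (adjusted p = 0.0078) and HMGB2, abundant in spermatocytes and spermatids, by 0.42 ± 0.09 (adjusted p = 0.00578). The calls of HMGB1 and HMGB2 were lost with scaling to the 75th percentile (0.51 and 0.26), and their several probes did not move alike, as described below. HMGN2 and HMGA1 differed by 0.10 and 0.18, neither of which passed.

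Chromatin remodellers slide or evict nucleosomes, and 4 of 9 rose in t(1;14) against control while none fell, where 20% of all probes rose. One of the 4 was CHD4, which was tested only because of its level in t(1;14). SMARCA1, an ISWI-family ATPase encoded on the X chromosome, read 10.26, 9.89 and 10.16 on the control arrays, 10.231, 10.002 and 9.596 on the oligospermic arrays and 11.09, 11.11 and 11.34 on the t(1;14) arrays. Every t(1;14) array lay above the other 6. SMARCA1 rose 2.11-fold (1.08 ± 0.18, adjusted p = 0.00135). CHD6 rose by 0.65 ± 0.14 (adjusted p = 0.00408) and CHD3, an ATPase of the NuRD complex, by 0.51 ± 0.11 (adjusted p = 0.00505) on the leading probe, neither of which passed with scaling to the 75th percentile (0.50 and 0.36). CHD6 was read by 5 probes that all pointed upward, from 0.42 to 0.68, although only the leading one passed.

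CHD4, the other main NuRD ATPase, was at the edge of detection. Its probe read 2.54, 1.49 and 1.34 on the control arrays, 2.18, 3.15 and 2.20 on the oligospermic arrays and 4.16, 3.50 and 3.91 on the t(1;14) arrays, and it was well above background on 2 of the 3 t(1;14) arrays and on no other. The control values are therefore limits. Set against the lowest signal that counts as well above background, CHD4 was at least 1.22-fold higher in t(1;14) than in control. The adjusted p of 0.0021 in limma belongs to the fitted log2 difference of 2.07 and not to this bound. It also comes from a probe that passed the filter only through t(1;14). With normexp background correction the log2 fold change was 0.26 and did not pass.

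Acetyltransferases and deacetylases write and erase the acetyl marks that peak before histones are removed in spermatids. KAT2B, also known as PCAF, read 5.67, 5.71 and 6.02 on the control arrays, 5.189, 5.005 and 5.240 on the oligospermic arrays and 6.39, 6.67 and 6.63 on the t(1;14) arrays. The 3 groups separated completely, with the oligospermic boar lowest and t(1;14) highest. KAT2B rose 1.70-fold in t(1;14) against control (0.76 ± 0.14, adjusted p = 0.00191). Its difference of -0.65 ± 0.14 in oligospermic against control did not pass (adjusted p = 0.0737). These differences were close in size, with the same standard error. An adjusted p depends on the share of probes that pass, 38.5% in the first comparison and 0.224% in the second. KAT6B, the other acetyltransferase tested, differed by -0.07 in t(1;14).

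All 3 sirtuins that work in mitochondria fell in t(1;14) against control, where 18.5% of all tested probes fell. The grouping was made after their values were seen. SIRT4 read 9.94, 10.08 and 9.79 on the control arrays, 10.14, 9.66 and 9.87 on the oligospermic arrays and 7.98, 7.87 and 7.95 on the t(1;14) arrays. The t(1;14) arrays lay well below the other 6, which overlapped. SIRT4 fell 4.01-fold (-2.00 ± 0.14, adjusted p = 1.44e-05), its second probe fell by 2.34 on the log2 scale, and an unnamed probe on the array with the sequence of the leading probe differed by -2.03. Because SIRT4 lay so close to the fold threshold, it stayed past both thresholds or not according to the processing. SIRT3 read 8.58, 8.48 and 7.94 in controls and 7.50, 7.42 and 7.31 in t(1;14), a fall of 1.90-fold (adjusted p = 0.00244), and SIRT5 fell by 0.52 on the log2 scale (adjusted p = 0.00894). The SIRT5 call was lost with no filter on dim probes (adjusted p = 0.0119) and with the 6 arrays alone (adjusted p = 0.0218). It was also lost with the replicate block (adjusted p = 0.0271), although replicate numbers do not pair these arrays. SIRT3 and SIRT5 were each read by a single probe. SIRT5 was also lower in the oligospermic boar, at 9.37 to 9.59 against 9.78 to 9.93 in controls, a difference that did not pass (adjusted p = 0.305).

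Of the nuclear sirtuins, which deacetylate histones and other chromatin proteins, SIRT1 rose by 0.67 ± 0.10 (adjusted p = 0.000854) and SIRT6 by 0.45 ± 0.11 (adjusted p = 0.00886) on their leading probes, and other probes of both genes fell. The SIRT6 call was lost with scaling to the 75th percentile (0.38, adjusted p = 0.0189) and with normexp background correction (adjusted p = 0.016). The nucleolar SIRT7, with 0.21, and the mostly cytoplasmic SIRT2, with -0.28, did not pass. No classical deacetylase passed against control: HDAC3, HDAC5 and HDAC10 differed by 0.29, 0.43 and 0.25, with HDAC5 nearest the threshold (adjusted p = 0.0137).

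Of the 7 histone methyltransferases tested, none passed on its leading probe, where 38.5% of all tested probes passed. Their log2 fold changes ran from -0.36 for SETD8, which methylates lysine 20 of H4, to 0.70 for SETDB2. SETDB1, which makes the silencing mark on lysine 9 of H3 and takes part in silencing the sex chromosomes in meiosis, differed by -0.14 ± 0.10, and EHMT2, or G9a, by 0.27. SETD3, an actin histidine methyltransferase in the same family, differed by -0.22 on its leading probe, and its other probes fell by 0.68 and 0.61 on the log2 scale (adjusted p = 0.000479 and 0.00109). Of the 10 demethylases tested, 2 rose and 2 fell, where 20% of all tested probes rose and 18.5% fell. KDM1B, a flavin-dependent demethylase known from the oocyte, rose 1.79-fold (0.84 ± 0.17, adjusted p = 0.00399), with t(1;14) arrays at 9.34, 9.32 and 9.30 and control arrays at 8.86, 8.30 and 8.28. Its other probe, at base 2403 against 4238 for the leading one, gave 0.03 (adjusted p = 0.952). KDM5C, an X-linked demethylase of lysine 4 of H3, rose 1.58-fold (0.66 ± 0.12, adjusted p = 0.00221).

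KDM4A, which removes methyl groups from lysines 9 and 36 of H3, read 11.570, 11.499 and 11.493 on the control arrays, 11.19, 11.07 and 11.13 on the oligospermic arrays and 10.86, 10.77 and 10.88 on the t(1;14) arrays. The 3 groups did not overlap, and the oligospermic boar lay between the other two. KDM4A fell 1.61-fold in t(1;14) against control (-0.69 ± 0.09, adjusted p = 0.000415). The difference of -0.39 in oligospermic against control did not pass (adjusted p = 0.107). Both KDM4A probes fell, the second by 1.49 on the log2 scale to a level that was well above background on 1 of the 3 t(1;14) arrays. KDM6B, a demethylase of lysine 27 of H3, fell by 0.56 on the log2 scale (adjusted p = 0.0086), a call that was lost with slide as a block (adjusted p = 0.0162). The KDM6B call was also lost with normexp background correction (adjusted p = 0.0191), with no filter (adjusted p = 0.0123) and with 6 arrays alone (adjusted p = 0.0197). It did not pass in any of the 6 fits that left out an array. The X-linked relative of KDM6B, KDM6A, at -0.58, had controls spread from 4.93 to 5.90 and did not pass.

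The readers included the largest fall after SIRT4. BRD3, a BET-family bromodomain protein, read 9.82, 10.40 and 9.80 on the control arrays, 10.09, 10.01 and 10.08 on the oligospermic arrays and 8.11, 8.37 and 8.16 on the t(1;14) arrays. The t(1;14) arrays lay below the other 6, a fall of 3.46-fold (-1.79 ± 0.17, adjusted p = 6.15e-05) that the second BRD3 probe did not show. BRD2 of the same family differed by -0.35 (adjusted p = 0.0408). The DNA methyltransferases DNMT1, which copies methylation after replication, and DNMT3A, which sets it anew, differed by 0.02 and 0.60, and neither passed (adjusted p for DNMT3A = 0.0127). None of the 6 DNMT1 probes passed.

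**Figure D2:**
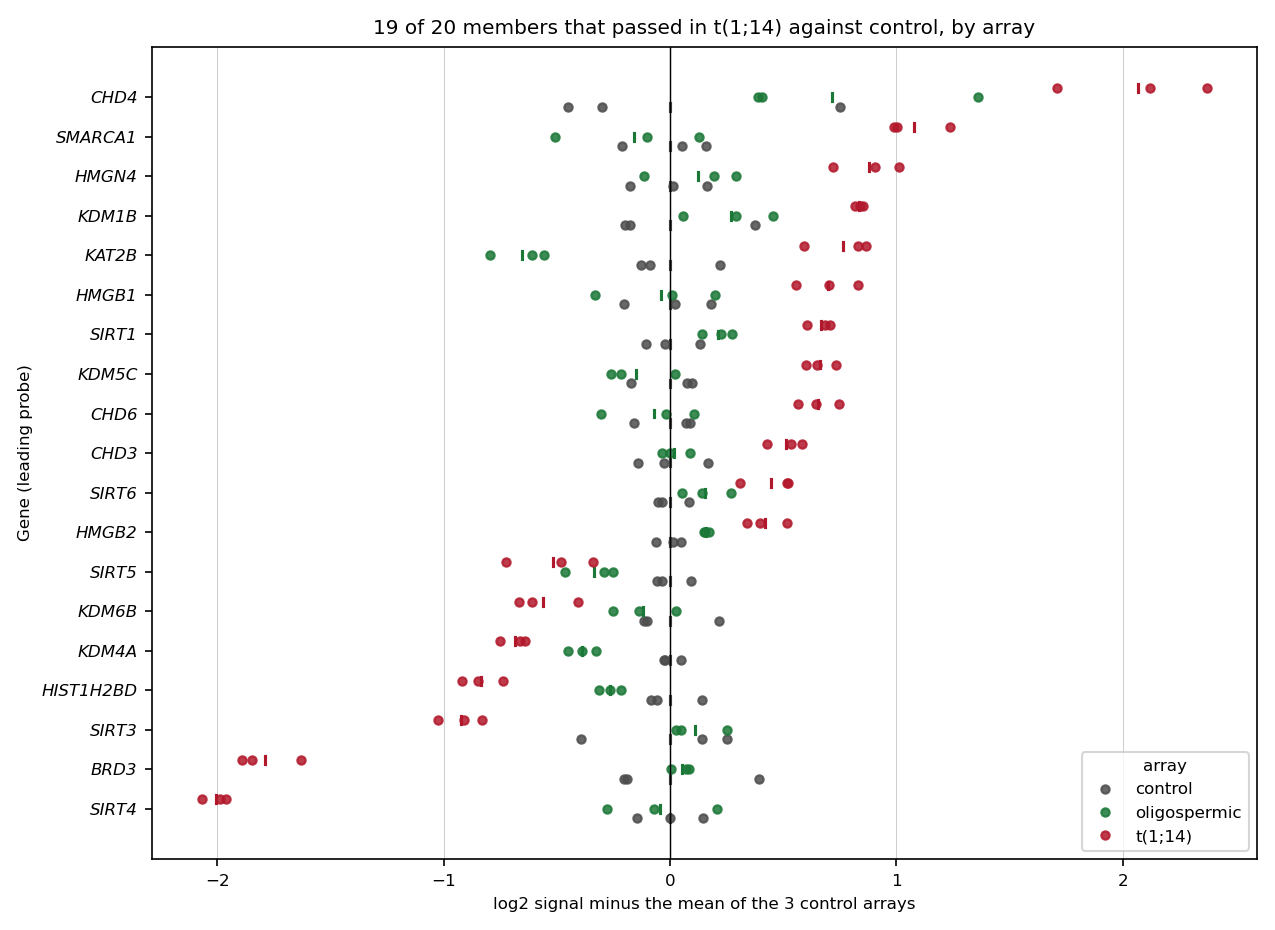
Log2 signal of each array minus the mean of the 3 control arrays (x axis) for 19 of the 20 genes that passed in t(1;14) against control (y axis, leading probe); points are single arrays and short bars are group means. All 3 t(1;14) arrays lie outside the control range in every row, and in HIST1H2BD, KDM4A, KAT2B, SIRT5, SIRT1 and HMGB2 the oligospermic arrays also lie apart from the control arrays; the CHD4 points of control and oligospermic arrays were not well above background.

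The oligospermic boar is a second animal with few sperm to set against the controls, without the translocation. None of the 56 genes passed in oligospermic against control in limma, and 0.224% of all tested probes did (92 probes; 5331 had an unadjusted p under 0.05). The adjusted p depends on the share of probes that pass, so a change of a given size can pass in t(1;14) against control and not here. The largest differences in oligospermic against control were -0.65 for KAT2B and 0.72 for CHD4, the latter between levels not well above background. In 8 genes the arrays of the groups did not overlap, 14.3% of the 56 against 15.5% of all probes (7.87% higher and 7.66% lower). The 5 lower ones were KAT2B, KDM4A, SIRT5, HIST1H2BD and SETD3, and the 3 higher ones were HMGB2, SIRT1 and SETDB1, listed here after their values were seen. HMGB2 read 12.12, 12.10 and 12.10 in the oligospermic boar against 11.888, 11.960 and 11.999 in controls. SETDB1 read 12.37, 12.29 and 12.33 against 12.15, 12.03 and 12.07. With 3 arrays a group these differences, of 0.16 and 0.25, did not pass (adjusted p = 0.548 and 0.318).

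Set against the oligospermic boar in place of the controls, 11 of the 56 genes rose in t(1;14) and 6 fell, or 30.4%, where 42.7% of all tested probes passed (22.8% higher and 19.9% lower). None passed both thresholds, where 6.53% of all probes did, and 5 passed with a log2 change of at least 1, where 23.4% did. This comparison uses the same t(1;14) arrays as the first and is no independent repeat of it. Among the genes that passed, the largest values were 1.42 ± 0.14 for KAT2B (adjusted p = 6.26e-05), 1.24 ± 0.18 for SMARCA1, -1.96 ± 0.14 for SIRT4, -1.84 ± 0.17 for BRD3 and -1.03 ± 0.17 for SIRT3. KAT2B was 2.67-fold higher here and 1.70-fold higher against control, and as given above the gap between the oligospermic and control arrays did not pass.

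Some genes passed against the oligospermic boar and not against control. DNMT3A rose by 0.69 (adjusted p = 0.0059), HDAC5 rose by 0.55 (adjusted p = 0.0042), BRD2 fell by 0.50 (adjusted p = 0.00803) and SETDB1 fell by 0.38 (adjusted p = 0.00896). Each of these calls was lost in 5 or 6 of the 6 fits that left out an array, that of HDAC5 also with scaling to the 75th percentile (0.38, adjusted p = 0.017) and that of SETDB1 with slide as a block (adjusted p = 0.0115). The same genes differed between oligospermic and control by -0.09, -0.11, 0.15 and 0.25, and none of these differences passed. The SETDB1 fall is that of its leading probe. Of 3 tested SETDB1 probes in t(1;14) against oligospermic, 1 rose and 1 fell, with values from -0.38 to 1.815. Others that had passed against control did not pass here: KDM4A at -0.30 (adjusted p = 0.0227), HMGB2 at 0.26, SIRT6 at 0.29, KDM1B at 0.57, KDM6B at -0.44, SIRT5 at -0.18 and CHD4.

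Several probes of a gene often disagreed. Of the 56 genes 32 had more than 1 tested probe, and 13 of these 32 had passed in t(1;14) against control on the leading probe. In 3 of the 13, HMGN4, SIRT4 and KDM4A, every tested probe gave the same call. In CHD3, HMGB2, SIRT1 and SIRT6, at least 1 probe rose and another fell, and in BRD3 the probes differed in call. The first 30 of the 60 bases of probes of these 5 genes are shown, 5′ to 3′ and read from the array's annotation, since the sign or call of the result depends on which of them is read. The array gives each probe its start in a transcript record and no genome position.
CHD3, start 226: aatttggctctgagcgagatgagtaccggg
CHD3, start 3667: aggagctggacgacatcctcaaatttggca
SIRT6, start 249: aagttcgacaccaccttcgagaacgcgagg
SIRT6, start 769: tccacggctacgtagatgaggtcatgaccc
SIRT6, start 1288: acctggcttcctccaggcttccagaaaagc
BRD3, start 2134: tttgagactctgaaacccaccactctgcgg
BRD3, start 3766: ctggtctctttaggactgtttgaaaaataa
SIRT1, start 1848: aaatgctggccagctagacttgcaaaggag
SIRT1, start 3890: gactggatatcttcctccaacttttgaaat
HMGB2, start 593: ctaaaggaaaaatatgaaaaggatattgct
HMGB2, start 762: aagatgaggaataaatggctattccggtaa
HMGB2, start 801: ggagtgtgtgtgtgtgctcaggcaattatt

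SIRT6 gave the widest split. The probe at 769 read 8.003, 7.537 and 8.232 on the control arrays, 7.58, 8.02 and 8.38 on the oligospermic arrays and 5.77, 5.47 and 5.63 on the t(1;14) arrays, a fall of 2.30 on the log2 scale (adjusted p = 9.37e-05). The leading probe at 1288, in the same transcript record, read 9.67, 9.68 and 9.80 in controls and 10.23, 10.24 and 10.02 in t(1;14). So all 3 t(1;14) arrays lay below control at one position and above it at the other. The probe at 249 differed by -0.19, near background. SIRT1 split the same way, with 0.67 at 3890 and -1.24 at 1848 (adjusted p = 0.000276), but its probes are listed against different transcript records, so their positions cannot be compared.

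In BRD3 the fall of 1.79 on the log2 scale at base 2134 stood beside 0.19 at base 3766 (adjusted p = 0.203), where the controls read 8.56, 8.22 and 8.32 and t(1;14) 8.55, 8.56 and 8.56. In CHD3 the rise at 226 stood beside -0.18 at 2698, a fall of 1.24 on the log2 scale at 3667 and -0.37 at 5346. KDM2A, whose leading probe at 5644 differed by -0.14, fell 2.11-fold at 2845 and 2.43-fold at 3485. BRD2, not passed on its leading probe, fell by 1.25 on the log2 scale at 2121 (adjusted p = 4.97e-05). HMGB2 rose at 762 and 801 by 0.57 and 0.42, gave 0.56 at 816 (adjusted p = 0.0106), and fell by 0.73 on the log2 scale at 593 (adjusted p = 0.00281). In an ungapped overlap, the HMGB2 probe at 593 matched the HMGB1 probe at 465 at 66% of the bases, and a shorter stretch of them was identical. Probes were compared with probes and not with whole transcripts. The share of HMGB1 signal in the HMGB2 probes was not tested.

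HMGB1, read by 16 probes in a single transcript record, showed the pattern most finely. The 9 probes that start between bases 863 and 2106 all rose in t(1;14) against control, by 0.60 to 0.97. The 7 that start between 378 and 678 gave 0.09 to 0.42 and none passed. At base 378 the arrays read 12.93, 13.07 and 13.01 in control and 13.02, 13.13 and 13.27 in t(1;14), overlapping. At base 2106 they read 11.84, 11.72 and 11.92 in control, 11.92, 11.92 and 11.57 in the oligospermic boar and 12.77, 12.73 and 12.91 in t(1;14), far apart. Probes that start a few bases apart, such as those at 465, 466 and 470, share most of their sequence and are not independent readings. The boundary between the sets was chosen after the values were seen, and these are the probes on either side of it and at the ends.
HMGB1, start 378: atgttgcaaagaaactgggaagatgtggaa
HMGB1, start 678: tttcttgtctataaagcatttaacccccct
HMGB1, start 863: aaccttgcctggtacagtatgggggttgta
HMGB1, start 2106: gcatttgtttatgtaatttcaggaggaata

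**Figure D3:**
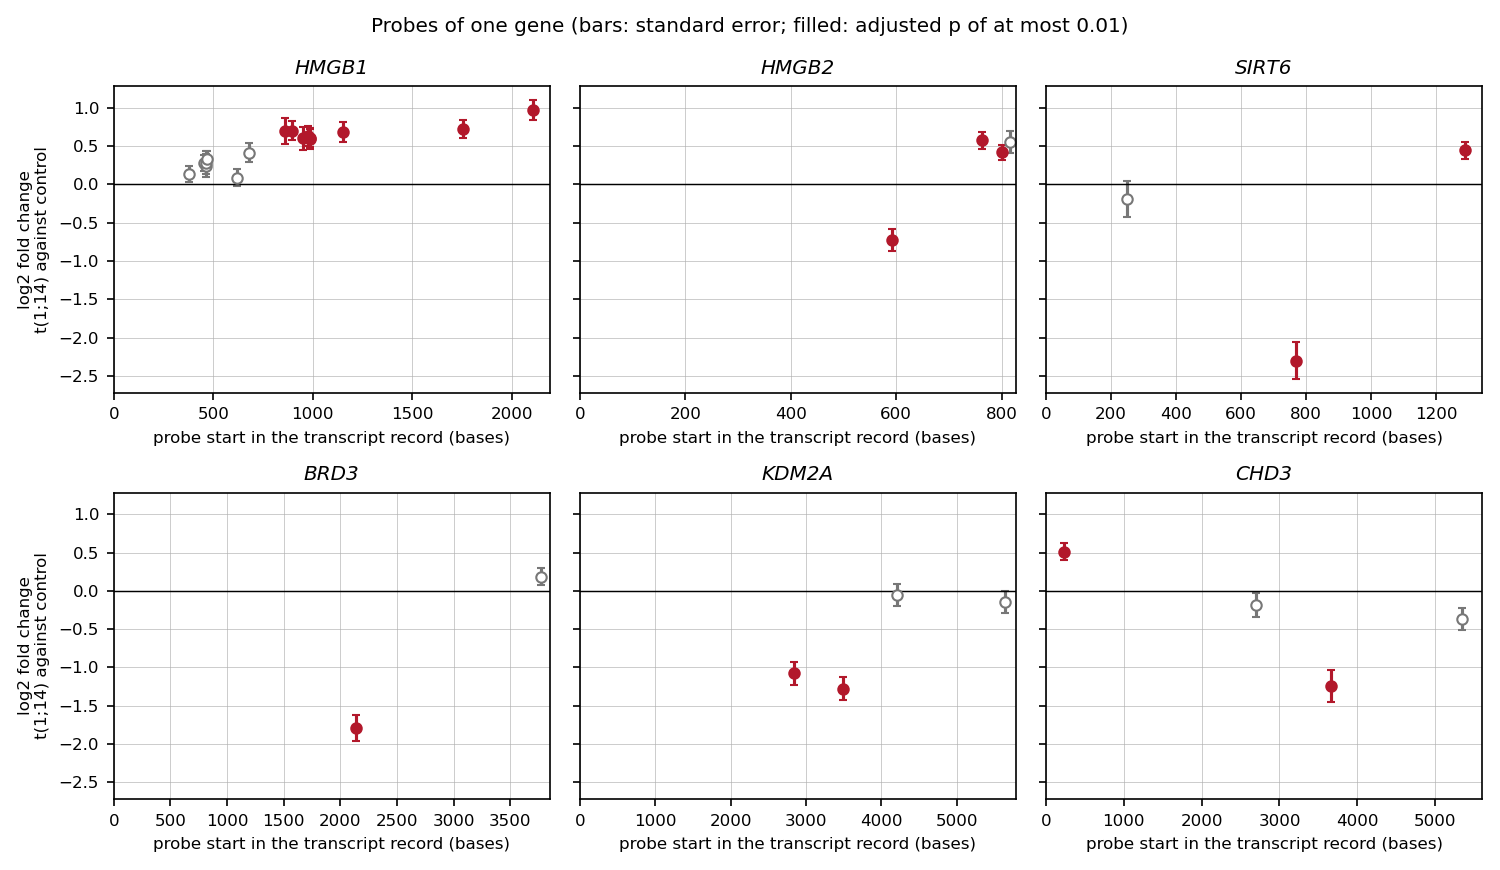
Log2 fold change of t(1;14) against control (y axis, with the standard error) for each tested probe of 6 genes by its start in the transcript record in bases (x axis); filled points passed an adjusted p of 0.01. HMGB1 steps from at most 0.42 up to base 678 to at least 0.60 from base 863 on, and the other 5 genes hold probes that differ in call or in sign.

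A shift between the ends of transcripts was not particular to chromatin genes. Over all 2384 transcript records with tested probes at least 300 bases apart, the log2 signal of the probe nearest the 3′ end was compared with that of the probe nearest the 5′ end, and the difference between groups in this quantity was fitted in limma across all of them, an analysis added after the values were seen. In t(1;14) against control the 3′ probe gained on the 5′ probe in 73.2% of all transcripts and in 18 of the 27 chromatin genes that could be compared. The median shift was 0.27 over all and 0.19 over the 27. By array, the median over all transcripts was 0.25 to 0.30 on the t(1;14) arrays, relative to the control mean, against -0.04 to 0.03 on the control arrays and -0.01 to 0.06 on the oligospermic arrays. The t(1;14) arrays thus stood apart from the other 6. RNA integrity values were not used here, and the part of this shift in the changes described above was not tested.

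Individually, 6 of the 27 genes passed for this shift in t(1;14) against control, 5 toward the 3′ end and 1 toward the 5′ end, where 22% of all transcripts passed and 18.3% passed toward the 3′ end. The 6 became 3 without t(1;14) replicate 3 and 4 to 6 without any other array. The 3′ probe gained by 1.98 ± 0.22 in BRD3 (adjusted p = 0.000199), by 0.93 ± 0.16 in KDM2A, by 0.84 ± 0.13 in HMGB1 (adjusted p = 0.00162) and by 0.74 ± 0.16 in SETD5. In SETDB1 the gain of 1.81 ± 0.40 rests on a 3′ probe that was well above background on no control array and on all 3 t(1;14) arrays. CHD3 went the other way, at -0.88 ± 0.11 (adjusted p = 0.000497). None of the 27 passed in oligospermic against control, where 0.126% of all transcripts did, and 5 passed in t(1;14) against oligospermic, where 23.9% did. Those 5 became 2 without oligospermic replicate 3 or t(1;14) replicate 3, and 3 without oligospermic replicate 2 or t(1;14) replicate 1 or with the replicate block.

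**Figure D4:**
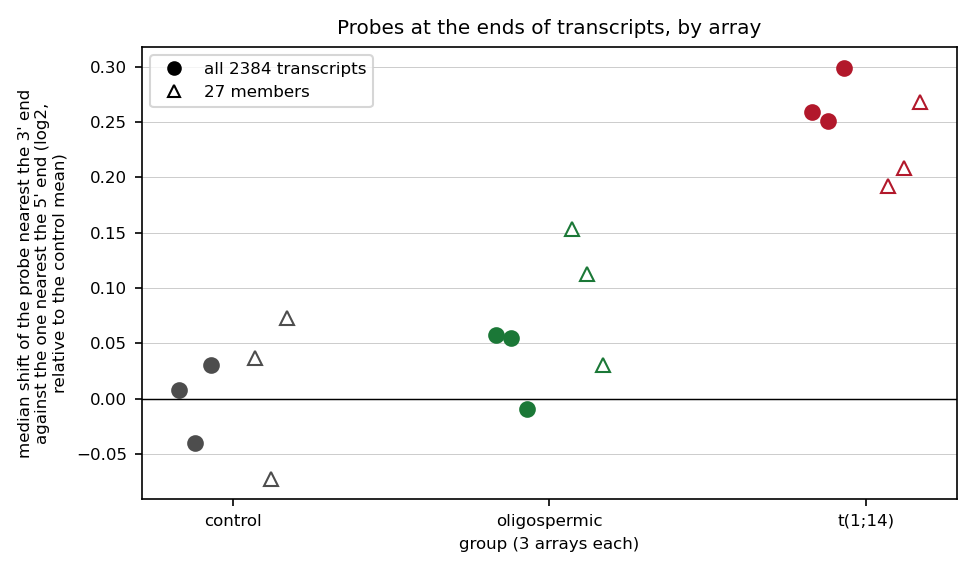
Median shift of the probe nearest the 3′ end against the probe nearest the 5′ end of a transcript (y axis, log2, relative to the control mean) on each of the 9 arrays by group (x axis), over all 2384 transcripts (filled circles) and over the 27 chromatin genes (open triangles). The 3 t(1;14) arrays sit at 0.25 to 0.30 for all transcripts and the other 6 at -0.04 to 0.06.

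Other genes of the same machinery, listed by role and not matched by the naming rule, were read from the same fit. Of 70 such genes 28 were on the array under those symbols and 26 were tested, of which 6 rose and 4 fell in t(1;14) against control and none passed in oligospermic against control. The 10 that changed are as large a share of the 26 as the 38.5% of all tested probes that passed. The genes named next are those that passed with the largest changes. Among them the Polycomb subunit EED, of the complex that methylates lysine 27 of H3, rose by 1.01 ± 0.14. BMI1, of the Polycomb complex that ubiquitinates H2A, fell 4.18-fold (-2.07 ± 0.18, adjusted p = 3.65e-05). The Polycomb subunits SUZ12 and RING1 were also tested and are not among the genes named. The largest change was in CARM1, an arginine methyltransferase, which fell by 2.83 on the log2 scale (adjusted p = 6e-06). UHRF1, which brings DNMT1 to replicated DNA, and SUV39H2, a testis-enriched methyltransferase of lysine 9 of H3, fell by 0.76 and 0.69. LSM11, which helps process the ends of replication-dependent histone messages, PHF6 and PYGO2, a reader needed in spermatids, rose by 0.98, 0.93 and 0.76. Each of these was read by its leading probe only.

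By their place in the genome, 57 of the 61 genes matched a gene in RefSeq's Sscrofa11.1 annotation by symbol, all but BRD3, H2AFY2, H3F3B and SETD8. None of the 57 lay on chromosome 1, and the chromosomes of the 4 unmatched genes, BRD3 among them, were not determined. Of 5 on chromosome 14, HMGB2 and SIRT1 rose and SIRT4 fell on their leading probes in t(1;14) against control, while KAT6B and SMARCB1 differed by -0.07 and 0.10. Of 3 on the X chromosome, KDM5C and SMARCA1 rose and KDM6A did not pass. Over all tested probes 38.5% passed, 20% higher and 18.5% lower. Other probes of HMGB2 and SIRT1 fell, as given above, and a link of these calls to the chromosome was not tested. The 5 genes that could not be tested were CBX1, DNMT3B, H1FOO, KAT2A and SETD7, each with a single probe that was well above background on at most 1 array of any group.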

How the data were processed

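Total RNA of testis biopsies had been labelled with cyanine 3 and hybridized to a 60K porcine array. The authors deposited, for each array, the spot values of Agilent Feature Extraction 11.5.1.1. The column used is the processed intensity, from which the software had subtracted a fitted spatial background and divided out a multiplicative trend, and arrays had not been normalized against each other. A second deposited table holds log2 values of 38759 probes, quantile normalized by the authors over the 9 arrays, which were used to choose the leading probe of each gene and as an alternative source of values.

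Here the log2 processed intensity of the 60889 probes that are not controls was quantile normalized over the 9 arrays in limma 3.58.1 under R 4.3.3. Testing required 2 or more arrays of a group on which the probe was well above background and carried no outlier flag, and a 3-group linear model with empirical Bayes variances gave the 3 comparisons. The methods' thresholds were 0.01 for the adjusted p and 2 for the size of the log2 fold change. A group with no array well above background gives a limit, for which each of its arrays was set at its own signal or, if that was larger, at the dimmest signal well above background on it. The number of arrays, 3 to a group, limits the precision. The script was tested on simulated data with 200 changed probes out of 41105. It recovered 26% of them at a log2 change of 1, with 5 false calls, and 77% at a change of 2, with 28. In t(1;14) against control 38.5% of probes passed, many more than were changed in the simulation, and the adjusted p depends on that share. These figures therefore do not give the recovery in that comparison. A gene that did not pass may still have changed.

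Genes and lists were chosen with earlier results of these data known. The naming rule takes members with a known testis role that passed, members past both thresholds, and the largest rise and fall of each role class, which gives 17 members. The other 7 members that passed in a comparison, and members named for their range, were added after their values were seen, as was the comparison of transcript ends. The values of some genes of the same naming patterns are not reported here. Marker lists cover germ cell stages (spermatogonium, spermatocyte, spermatid), Leydig and Sertoli cells, peritubular and vascular cells, immune cells and S phase.

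The alternatives were scaling to the 75th percentile, normexp background correction with an offset of 50, the deposited log2 values, no filter, a filter applied in every group, a block for slide or for replicate number, an intensity trend, 6 arrays alone, the second probe of a gene, a fold threshold of 1 and leaving out each array. Replicate numbers do not pair t(1;14) with control arrays, whose deviations from the group means correlated at -0.285, -0.194 and 0.139 for the same number. For oligospermic and control, where equal numbers also share a slide, they correlated at 0.478, 0.136 and 0.101, so those numbers pair the arrays through the slide. Arrays of t(1;14) that share a slide with control arrays correlated at 0.339, 0.109 and 0.119, and those that share one with oligospermic arrays at 0.489, 0.292 and 0.33, so the slide pairs the arrays in these comparisons too.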

Additional observations from a re-analysis of the deposited data

How the results depend on the processing

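The number of chromatin genes that passed the adjusted p in t(1;14) against control, 20 of 56, fell to 13 with the replicate block and to 10 of 32 with the second probe of a gene, and lay between 9 and 16 when an array of either group was left out, lowest without t(1;14) replicate 3 (9), t(1;14) replicates 1 and 2 (11 each) and control replicate 2 (12). Past both thresholds, the 2 genes became 0 with normexp background correction or the deposited log2 values, 1 with a filter in every group or with 6 arrays alone, 4 with a fold threshold of 1, and 0 to 2 when an array was left out. In oligospermic against control the count was 0 under every alternative run. In t(1;14) against oligospermic, 17 genes became 10 with the replicate block, 6 of 32 with the second probe, and 8 to 13 when an array was left out. Past both thresholds, 0 became 2 with the second probe, 5 with a fold threshold of 1, and 0 to 1 when an array was left out. The replicate block also lowered the number of genes with a shift between transcript ends in t(1;14) against oligospermic from 5 to 3 and changed no other count by over 1.5 times, and under slide as a block the counts were 22, 0 and 18. Replicate numbers, as given above, do not pair t(1;14) with control arrays. The cause of these changes was not tested, except that leaving out an array leaves fewer samples.

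The second probe reversed the log2 fold change in BRD3 (0.19), CHD3 (-0.18), SIRT1 (-1.24) and SIRT6 (-2.30) against control, and in CHD3 (-0.10), SIRT1 (-1.20) and SIRT6 (-2.37) against oligospermic. No other setting reversed a named gene. Signal over background limits what can be said of CHD4 and of the 5 genes not tested.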
